A study of Mus musculus with 12 samples.

Results

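The levels of 10 genes that mark endothelial cells or respond to the shear stress of flowing blood were followed in glomeruli of diabetic and nondiabetic mice treated with arctigenin (ATG), a plant lignan, or vehicle. The genes were taken by symbol (Ehd3, Emcn, Plvap, Egfl7, Eng, Sox17, Erg, Fli1, Klf2 and Klf4), and all 10 were among the 14096 genes with deposited values. The 12 male mice, 3 per group, were all eNOS-/- on a C57BL/6J background, so that every group, controls included, lacked endothelial nitric oxide synthase, an enzyme of the same cells that these genes mark. At 8 weeks of age the mice were given streptozotocin (STZ) at 50 mg/kg on 5 days to induce diabetes, or citrate buffer. From 10 weeks after induction, oral gavage with ATG at 40 mg/kg a day or with the 5% DMSO vehicle was begun, and after 8 weeks of it, 18 weeks after induction, glomeruli were isolated by bead perfusion for mRNA sequencing. The groups are called vehicle-treated nondiabetic (Con_DMSO), ATG-treated nondiabetic (Con_ATG), vehicle-treated diabetic (DM_DMSO) and ATG-treated diabetic mice (DM_ATG), and values of single mice are given in the order of mice 1, 2 and 3.

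The glomerular capillary is lined by a thin, fenestrated endothelium that lies against the basement membrane and the podocytes. Its identity is held by transcription factors of the ETS family (Erg, Fli1) and the SOXF family (Sox17), while Klf2 and Klf4 are zinc finger factors that laminar shear stress induces through the MEKK3, MEK5, ERK5 and MEF2 pathway and that favour a quiescent, anti-inflammatory endothelium. The other members are proteins that endothelial cells make for their surface, vesicles, diaphragms or matrix.

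Each deposited value is a log2 of reads multiplied by a single factor per library, not divided by gene length. Dividing by that factor gave 23.6 to 29.8 M reads per mouse on the listed genes, so every member rested on at least 470 reads in each mouse. The labels carry number strings that no 2 groups share, and in each nondiabetic group mouse 3 has another string than mice 1 and 2. What the strings mark is not stated, and if they mark batches, these cannot be told apart from the groups. Nos3, the disrupted gene, still had 846 to 2703 reads per mouse, with no wild-type library here to set them against. The labels' protocol describes a sort for a fluorescent protein, while the paper's methods describe isolated glomeruli. Podocyte markers were abundant in each library (mean log2 value of 20 genes from 12.92 to 14.54). The mean ran from 11.18 to 12.66 for 28 endothelial genes outside the members and from 10.91 to 14.09 for 30 tubule genes. These markers do not settle whether cells were sorted, and the samples are described here as glomeruli, as in the paper. Markers of kidney tubules moved with the groups. All 30 were listed, none was at 0 reads in any mouse, and the log2 of their summed value ran from 18.91 to 19.24 in vehicle-treated and 19.48 to 20.00 in ATG-treated nondiabetic mice, against 16.88 to 18.31 and 17.84 to 18.10 in the diabetic groups. In a bulk sample of this kind, fewer cells of a type and less RNA per cell cannot be told apart.

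Per kilobase of transcript, Emcn, Ehd3, Egfl7 and Eng stood above every transcription factor among the members, while Plvap stood below Klf2. Over all mice, the linear value per kb was 17236 for Emcn and 10390.4 for Ehd3, which places them at percentiles 99.4 and 98.7 of all listed genes. Egfl7 (6537), Eng (6358) and Klf2 (3825) followed. Plvap had 1522 per kb, Erg 1067 and Klf4 1040.3. Sox17 (536) and Fli1 (382) were lowest, at percentiles 66.1 and 56.0. The order was nearly the same in the 4 groups. In vehicle-treated nondiabetic mice, Eng and Egfl7 were the only neighbours in that order whose mice overlapped. In ATG-treated nondiabetic mice, 7 of 9 neighbouring pairs overlapped.

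**Figure D1:**
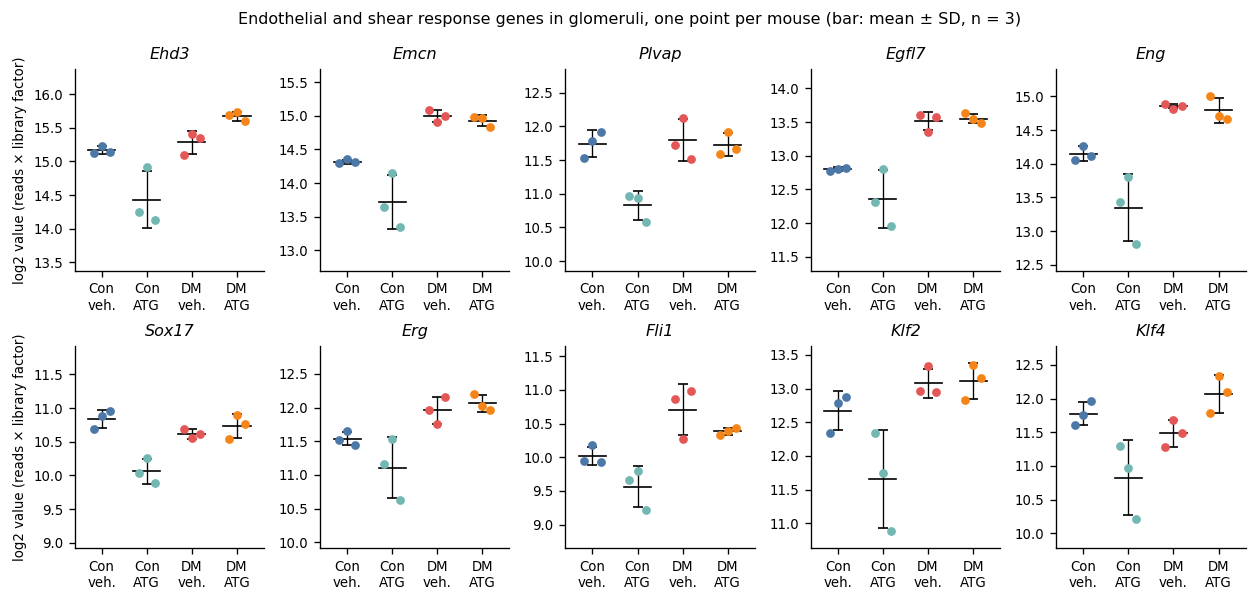
Deposited log2 value (reads multiplied by the library factor, y axis, a span of 3 log2 units in each panel) of the 10 genes in each mouse, by group (Con, nondiabetic; DM, diabetic; veh., vehicle); bars give the mean ± SD of 3 mice. The ATG-treated nondiabetic mice hold the lowest mean of the 4 groups for each of the 10 genes, and the diabetic groups stand above the vehicle-treated nondiabetic mice for Emcn, Egfl7, Eng, Erg and Fli1.

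Among the surface and secreted proteins, Emcn, Egfl7 and Eng separated diabetic from nondiabetic mice. Emcn (chromosome 3, 137341078 to 137431069, mm10) encodes endomucin, a sialomucin of the capillary and venous endothelial surface. Its log2 value was 14.29, 14.35 and 14.31 in vehicle-treated nondiabetic mice, 13.65, 14.15 and 13.35 with ATG, 15.08, 14.91 and 14.99 in vehicle-treated diabetic mice and 14.98, 14.97 and 14.83 in diabetic mice with ATG. All 6 diabetic mice lay above all 6 nondiabetic mice, and the 3 nondiabetic mice with ATG lay below the 3 without.

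Egfl7 (chromosome 2, 26581056 to 26592682) encodes a secreted factor that endothelial cells lay down around growing vessels, and its gene also carries the microRNA Mir126a. It read 12.77, 12.81 and 12.82 in vehicle-treated nondiabetic mice and 12.32, 12.80 and 11.95 with ATG. In diabetic mice it read 13.61, 13.36 and 13.58 with vehicle and 13.63, 13.54 and 13.49 with ATG. The diabetic mice again lay above every nondiabetic mouse, but the nondiabetic groups overlapped, since ATG-treated nondiabetic mouse 2 was at the level of the vehicle group.

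Eng (chromosome 2, 32646595 to 32682669) encodes endoglin, a co-receptor that presents BMP9 and BMP10 to the receptor ALK1. Values of 14.06, 14.27 and 14.12 in vehicle-treated nondiabetic mice stood against 13.43, 13.80 and 12.81 with ATG. The diabetic mice had 14.88, 14.82 and 14.86 with vehicle and 15.01, 14.71 and 14.67 with ATG. Eng thus fell into 3 levels that did not overlap, with both diabetic groups sharing the highest. An exon of Egfl7 overlaps the opposite strand gene Agpat2 and an exon of Eng overlaps Fpgs, and the strand setting of the counting is not given in the sources used here, so reads from the overlaps cannot be assigned.

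Ehd3 and Plvap did not follow that pattern. Ehd3 (chromosome 17, 73804841 to 73832093) encodes an EH domain ATPase of endocytic recycling and is a defining gene of the glomerular endothelium in mice. It was at 15.13, 15.23 and 15.14 in vehicle-treated nondiabetic mice, 14.25, 14.91 and 14.13 in nondiabetic mice with ATG, 15.09, 15.41 and 15.35 in vehicle-treated diabetic mice and 15.69, 15.73 and 15.60 in diabetic mice with ATG. Vehicle-treated diabetic and nondiabetic mice overlapped, while the ATG-treated groups were the lowest and the highest of the 4 and overlapped neither vehicle group.

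Plvap (chromosome 8, 71497753 to 71511769) encodes the protein that forms the diaphragms of fenestrae and caveolae. Its values were 11.53, 11.78 and 11.92 in vehicle-treated nondiabetic, 10.97, 10.93 and 10.58 in ATG-treated nondiabetic, 11.73, 12.13 and 11.52 in vehicle-treated diabetic and 11.59, 11.92 and 11.67 in ATG-treated diabetic mice. Only the ATG-treated nondiabetic mice stood apart, about a log2 unit below the 3 groups that overlapped one another.

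The 3 identity factors differed among themselves. Erg (chromosome 16, 95359169 to 95459348), an ETS factor that keeps endothelial junction genes on, was at 11.52, 11.65 and 11.45 in vehicle-treated nondiabetic mice and at 11.16, 11.54 and 10.63 with ATG. In diabetic mice it was at 11.97, 11.76 and 12.16 with vehicle and 12.20, 12.03 and 11.96 with ATG. Every diabetic mouse was above every nondiabetic mouse.

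Fli1 (chromosome 9, 32422204 to 32541452), a close relative of Erg that blood cells use as well, was at 9.95, 10.18 and 9.93 in vehicle-treated nondiabetic mice and at 9.66, 9.80 and 9.22 with ATG. The vehicle-treated diabetic mice had 10.86, 10.27 and 10.98, the widest spread of the 4 groups, and those with ATG had 10.33, 10.39 and 10.43. Markers of blood cells are given beside it. For leukocytes the mean log2 value over 15 listed genes was 9.29, 9.33 and 8.83 in the vehicle-treated diabetic mice and 8.48, 9.05 and 8.61 in the vehicle-treated nondiabetic mice. For erythrocytes and platelets the mean over 6 listed genes of 9 (Pf4, Ppbp and Gp9 are not listed) was 7.80, 5.99 and 7.76 in the former and 5.63, 5.54 and 5.73 in the latter. Mouse 2 of the vehicle-treated diabetic group was thus the lowest of its group for Fli1 and for the erythrocyte and platelet mean, and the highest for the leukocyte mean. The part of these cells in the value of Fli1 was not tested beyond the fit with the leukocyte mean as a covariate, given with the diabetes comparison.

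Sox17 (chromosome 1, 4490928 to 4497354), a SOXF factor of arterial identity, went its own way. It read 10.69, 10.88 and 10.95 in vehicle-treated nondiabetic mice, 10.04, 10.26 and 9.88 with ATG, 10.69, 10.55 and 10.61 in vehicle-treated diabetic mice and 10.54, 10.90 and 10.77 in diabetic mice with ATG. Only the ATG-treated nondiabetic mice lay outside the range of the others. The antisense transcript Gm37587 overlaps an exon of Sox17 on the opposite strand.

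The shear response factors varied more than the other members among the ATG-treated nondiabetic mice, though not in every group. Klf2 (chromosome 8, 72319062 to 72321654) read 12.34, 12.79 and 12.88 in vehicle-treated nondiabetic mice and 12.34, 11.74 and 10.89 in nondiabetic mice with ATG, and its SD of 0.73 in the latter was the largest of any member in any group. In diabetic mice it read 12.96, 13.33 and 12.95 with vehicle and 12.83, 13.35 and 13.16 with ATG. With vehicle, the diabetic mice were just above the nondiabetic ones, and both diabetic groups covered the same range.

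Klf4 (chromosome 4, 55527137 to 55532475) read 11.61, 11.76 and 11.96 in vehicle-treated nondiabetic mice, 11.29, 10.97 and 10.21 with ATG, 11.28, 11.68 and 11.49 in vehicle-treated diabetic mice and 11.78, 12.34 and 12.09 in diabetic mice with ATG. In contrast to Klf2, its vehicle-treated diabetic mice were not above the nondiabetic ones, and all 3 were below the diabetic mice with ATG. Both genes are also early response genes that tissue handling can induce. The mean log2 value of 20 other early response genes was 11.54, 11.70 and 12.12 in vehicle-treated nondiabetic mice and 11.99, 10.87 and 10.11 with ATG, then 11.28, 11.56 and 10.67 in vehicle-treated diabetic mice and 11.68, 11.44 and 11.35 in diabetic mice with ATG. In the ATG-treated nondiabetic group that mean was ordered across the 3 mice as Klf2 and Klf4 were, and its part in their values was not tested.

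Windows of 250 bases before the RefSeq start (GRCm38.p6, taken from the strand of the gene) were searched for 5 motifs that endothelial transcription factors read. Shown are windows of Klf2 and Klf4, the pair of shear response factors, and of Emcn and Egfl7, the members with the letters AACAGGAA in a window. Both are among the 4 members called with diabetes in vehicle-treated mice. Eng, called as well, has a window without these letters, which is not shown. Of the 10 members, 7 matched the table, with 11 windows. Both strands were searched for TAAATTTA (the palindromic core of a MEF2 site), AACAGGAA (read by FOX and ETS factors together, with an ETS core inside it), AACAAT (SOX), AGGAAG (ETS, which can overlap AACAGGAA) and CCACCC (KLF). The window of Klf2 holds the MEF2 letters 117 bases before the start, and 1 of the 3 Erg windows holds them 15 bases before, while that of Klf4 holds none of the 5 motifs. Capitals mark the MEF2 letters.

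Klf2, chr8:72318812-72319061, plus strand: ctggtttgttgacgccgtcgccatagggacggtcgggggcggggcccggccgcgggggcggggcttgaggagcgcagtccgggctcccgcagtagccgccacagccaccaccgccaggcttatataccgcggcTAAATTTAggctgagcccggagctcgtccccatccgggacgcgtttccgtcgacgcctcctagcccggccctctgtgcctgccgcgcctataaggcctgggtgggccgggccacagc
Klf4, chr4:55532476-55532725, minus strand: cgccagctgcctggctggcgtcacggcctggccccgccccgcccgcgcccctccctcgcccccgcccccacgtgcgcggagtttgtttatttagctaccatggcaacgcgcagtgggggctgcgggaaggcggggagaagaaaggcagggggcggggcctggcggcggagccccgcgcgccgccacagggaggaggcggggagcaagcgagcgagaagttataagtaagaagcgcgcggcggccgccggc

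The MEF2 letters stood in 165 of 32851 windows of the same length (0.502%). Emcn and 1 of the 3 Egfl7 windows hold AACAGGAA, on the minus strand 173 bases and on the plus strand 92 bases before the start, as 2.25% of all windows do. Capitals mark AACAGGAA, its complement TTCCTGTT and, in Emcn, AACAAT, which 9.42% of all windows hold. An Erg window, not shown, also holds AACAAT, on the minus strand 120 bases before the start.

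Emcn, chr3:137340828-137341077, plus strand: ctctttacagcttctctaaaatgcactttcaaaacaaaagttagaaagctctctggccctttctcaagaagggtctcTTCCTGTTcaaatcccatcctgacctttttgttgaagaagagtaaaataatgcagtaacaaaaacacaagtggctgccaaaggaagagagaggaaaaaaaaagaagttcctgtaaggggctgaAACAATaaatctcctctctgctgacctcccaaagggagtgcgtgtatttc
Egfl7, chr2:26580833-26581082, plus strand: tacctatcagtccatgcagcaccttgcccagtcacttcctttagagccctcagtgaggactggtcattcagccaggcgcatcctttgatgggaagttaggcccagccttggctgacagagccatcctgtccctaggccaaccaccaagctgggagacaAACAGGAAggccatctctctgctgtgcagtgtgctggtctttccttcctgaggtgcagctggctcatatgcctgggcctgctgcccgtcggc

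The letters AGGAAG stood in 5 member windows (of Egfl7, Eng, Emcn and Erg) and in 29.5% of all windows. CCACCC stood in 3 (of Egfl7, Eng and Klf2) and in 28.1% of all. These matches describe letters and not bound sites.

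The comparison of vehicle-treated diabetic with vehicle-treated nondiabetic mice asks what diabetes changed in glomeruli without eNOS. Emcn, Egfl7, Eng and Fli1 rose, by 1.60 to 1.64 times, and the other 6 members did not pass the test. That is 4 of 10 members higher and 0 lower at an adjusted p under 0.05 in limma over all listed genes, where 10.2% of all genes were called higher and 8.63% lower. The median log2 fold change of the members was 0.42, beside 0.0075 for all genes.

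In log2 terms Egfl7 was 0.71 higher (standard error, SE, 0.17; limma adjusted p = 0.0169) and Eng 0.70 higher (SE 0.20, adjusted p = 0.0348). Fli1 was higher by 0.69 (SE 0.18, limma adjusted p = 0.0277) and Emcn by 0.68 (SE 0.16, adjusted p = 0.0182). Erg at 0.42 (limma adjusted p = 0.132) and Klf2 at 0.41 (adjusted p = 0.362) were not called, although their groups did not overlap. In all, 6 of 10 members lay higher without overlap, against 23.0% of all genes (p = 0.1 by an exact permutation test for both sides, which is the least that 3 mice against 3 allow). The fitted difference was 0.12 for Ehd3 (95% confidence interval −0.28 to 0.51), 0.05 for Plvap (−0.32 to 0.42), −0.23 for Sox17 (−0.48 to 0.03) and −0.29 for Klf4 (−0.82 to 0.23).

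**Figure D2:**
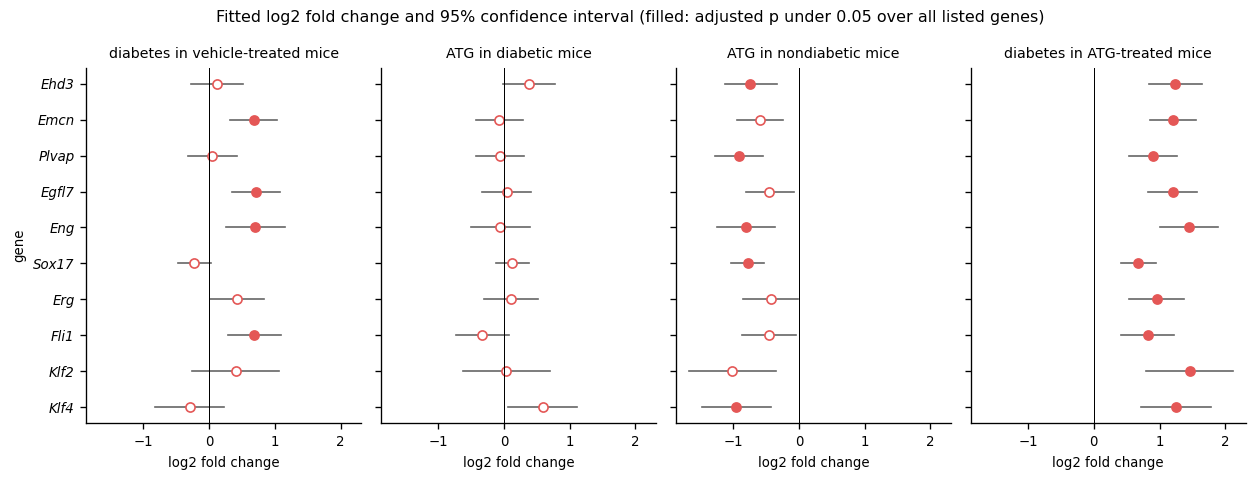
Fitted log2 fold change (x axis) of the 10 genes (y axis) in 4 comparisons, with 95% confidence intervals from limma; filled points have an adjusted p under 0.05 over all 14096 genes. Called genes number 4, 0, 5 and 10 from left to right, and the 5 called with ATG in nondiabetic mice are all lower.

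Other endothelial genes rose in part. Of the 28 in the endothelial reference list, 12 were called higher and 0 lower (median log2 fold change 0.41), with Mmrn2, a matrix protein of endothelial cells, at 0.77 (limma adjusted p = 0.00576). Of 30 tubule genes 20 were called lower (median −1.47), and 0 of 20 podocyte genes were called. With the tubule mean as a covariate, none of the 10 members and 211 of all 14096 genes were called, against 2659 without it. Under that covariate Emcn, Egfl7 and Eng were at 0.48 to 0.55 (adjusted p from 0.281 to 0.381 in limma), and Fli1 was at 0.14. With the leukocyte mean as a covariate no member and 888 genes were called, but the log2 fold changes were 0.69 for Emcn, 0.73 for Egfl7, 0.65 for Eng and 0.78 for Fli1 (limma adjusted p from 0.0574 to 0.116), with larger SEs. The calls also rested on single mice, since 0 members were called without vehicle-treated nondiabetic mouse 1 or vehicle-treated diabetic mouse 1, 1 without vehicle-treated nondiabetic mouse 3 and 2 without vehicle-treated diabetic mouse 3, while the 4 log2 fold changes were at least 0.55. The calls over all genes fell as well, to 801, 1003, 1262 and 2145 in that order.

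ATG in diabetic mice called none of the members. None of the 14096 genes passed either (0.0% called by limma). At an unadjusted p under 0.05 there was 1 member, Klf4, and 4.51% of all genes. The member log2 fold changes had a median of 0.04, beside −0.0051 for all genes.

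Klf4 and Ehd3 were the members whose diabetic groups did not overlap, both higher with ATG, where 3.85% of all genes were. Klf4 was 0.59 higher (SE 0.24, 95% confidence interval 0.06 to 1.11, limma adjusted p = 1.0). Ehd3 was 0.38 higher (SE 0.18, 95% confidence interval −0.01 to 0.78). Fli1 had the lowest fitted value of −0.33 (−0.73 to 0.08). For the 3 surface and secreted proteins that rose with diabetes, the intervals were −0.43 to 0.29 for Emcn, −0.33 to 0.41 for Egfl7 and −0.50 to 0.39 for Eng. Tubule markers lay at means of 11.84, 12.18 and 10.91 with vehicle and 12.08, 12.28 and 11.63 with ATG, and with them as a covariate Klf4 was at 0.53 and Ehd3 at 0.44. With the leukocyte mean as a covariate Klf4 was at 0.33 and Ehd3 at 0.38.

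ATG in nondiabetic mice came with lower values of all 10 members. Sox17, Plvap, Ehd3, Eng and Klf4 fell in the test, to between 0.515 and 0.601 times the vehicle level, and the log2 fold changes of the other 5 were between −1.02 and −0.43. The 5 of 10 called lower stand against 4.51% of all genes called lower and 0.709% called higher. The median of the members was −0.76, beside −0.039 for all genes.

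Sox17, at −0.78 on the log2 scale (SE 0.12), had the least adjusted p of the members, 0.00825 in limma. Plvap was at −0.91 (SE 0.17, limma adjusted p = 0.0152) and Ehd3 at −0.74 (SE 0.18, adjusted p = 0.0429). Eng at −0.80 (SE 0.20) and Klf4 at −0.96 (SE 0.24) shared an adjusted p of 0.0452 in limma. Klf2 had the lowest fitted value, −1.02, but with an SE of 0.30 it was not called (limma adjusted p = 0.0708). Leaving out single mice moved Klf2 between −1.36, without ATG-treated nondiabetic mouse 1, and −0.63, without mouse 3 of that group. In 8 of 10 members the groups did not overlap, where 20.0% of all genes lay lower without overlap. Egfl7 and Erg were the exceptions, both through mouse 2.

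**Figure D3:**
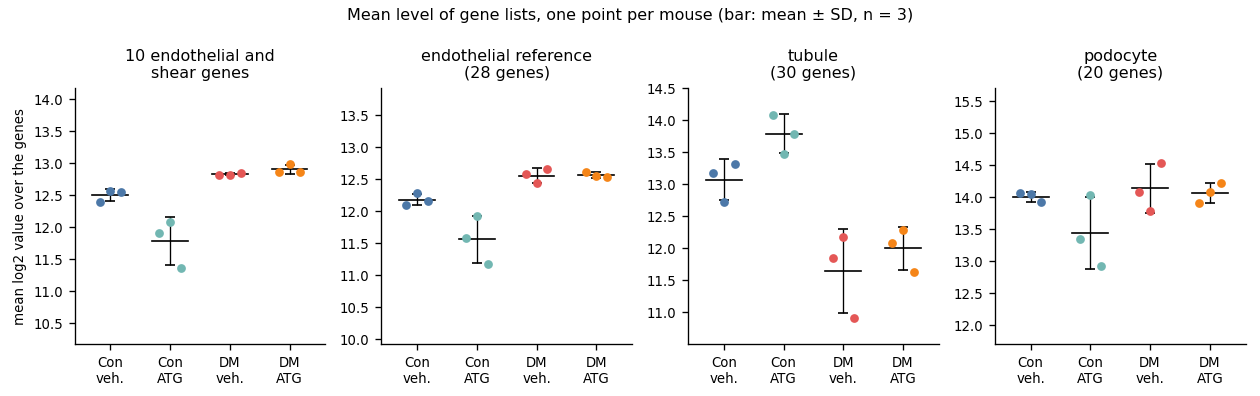
Mean log2 value (y axis, a span of 4 log2 units in each panel) of the 10 members, of 28 other endothelial genes, of 30 tubule genes and of 20 podocyte genes in each mouse, with the mean ± SD of 3 mice per group. The ATG-treated nondiabetic mice are lowest in both endothelial panels (11.79 and 11.56 on average) and highest in the tubule panel (13.79).

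Other cell types moved in the same comparison. The endothelial reference mean was 12.10, 12.28 and 12.17 with vehicle and 11.59, 11.92 and 11.18 with ATG, and 12 of its 28 genes were called lower. Tubule markers stood at 13.18, 12.72 and 13.32 with vehicle and 14.09, 13.48 and 13.79 with ATG, although 0 of 30 were called. Of 11 mesangial and mural genes, 7 were called lower, and of 20 podocyte genes none was, although the podocyte mean was 14.06, 14.05 and 13.92 with vehicle and 13.35, 14.04 and 12.92 with ATG (median log2 fold change −0.60, beside −0.65 for the endothelial reference). The ATG-treated mouse with the highest endothelial mean, mouse 2, also had the lowest tubule mean of its group. With the tubule mean as a covariate, Plvap alone of the members was called (log2 fold change −1.14, limma adjusted p = 0.0321), as were 39 of all genes against 736 without it. Sox17 was then at −0.75, Klf4 at −1.07, Eng at −0.73 and Ehd3 at −0.63 (limma adjusted p from 0.0678 to 0.249).

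The number called also hung on single mice, for the members and for all genes (736 with every mouse). It was 8 without ATG-treated nondiabetic mouse 2, 1 (Sox17) without ATG-treated nondiabetic mouse 3 or vehicle-treated nondiabetic mouse 3, and 0 without vehicle-treated nondiabetic mouse 2. It was 2 (Plvap and Sox17) without vehicle-treated nondiabetic mouse 1. Without ATG-treated nondiabetic mouse 1, 4 members (Klf2, Klf4, Plvap and Sox17) were called. Of all genes, 3531 were called without ATG-treated nondiabetic mouse 2, 212 without mouse 3 and 201 without mouse 1 of that group. Without vehicle-treated nondiabetic mice 1, 2 and 3 in turn, 382, 60 and 127 were. Diabetic mice enter only the estimate of the spread, yet 2 members were called without vehicle-treated diabetic mouse 1 or any 1 of the ATG-treated diabetic mice (363 to 450 of all genes) and 6 without vehicle-treated diabetic mouse 3 (1420 of all genes), and with both diabetic groups left out of the fit no member and none of the other genes was called. Without mouse 3 of both nondiabetic groups, the mice with another label string, 0 members and 8 genes in all were called, with member log2 fold changes from −0.70 (Plvap) to −0.23 (Egfl7).

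Diabetes in ATG-treated mice gave the largest median difference of the members. All 10 members rose, by 1.60 times for Sox17 to 2.74 times for Klf2, where 25.9% of all genes were called higher and 46.7% in either direction. The median of the members was 1.20, beside 0.053 for all genes, and in all 10 the groups did not overlap, as in 30.5% of all genes in that direction. This comparison shares the ATG-treated nondiabetic mice with the previous one, so the low values of those mice enter both.

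Klf2 was 1.46 higher on the log2 scale (SE 0.30, limma adjusted p = 0.00333) and Eng 1.45 (SE 0.20, adjusted p = 0.000475). Klf4 at 1.25, Ehd3 at 1.24, Emcn at 1.21 and Egfl7 at 1.20 followed, with adjusted p from 0.000407 to 0.00224 in limma. Erg was 0.96 higher, Plvap 0.90, Fli1 0.82 and Sox17 0.68. All 10 were called with any 1 mouse left out, where 4766 to 7451 of all genes were. Among the reference genes, 26 of 28 were called higher (median 1.01), and 28 of 30 tubule genes were called lower (median −1.78). With the tubule mean as a covariate, the members were between 0.14 (Fli1) and 1.94 (Klf2), and none was called (lowest adjusted p = 0.062 in limma), where 54 of all genes were, against 6585 without the covariate.

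Whether ATG acted differently in diabetic and nondiabetic mice was tested as an interaction, and Sox17 was the member called. It fell with ATG in nondiabetic mice, while the fitted ATG difference in diabetic mice was 0.12, so that the interaction was 0.90 on the log2 scale (SE 0.16, limma adjusted p = 0.0455). In this test 0.539% of all genes were called with a positive and 0.00709% with a negative interaction. The interaction was 1.54 for Klf4 (limma adjusted p = 0.072) and 1.12 for Ehd3 (adjusted p = 0.0858), and 7 of 10 members had an unadjusted p under 0.05, against 12.9% of all genes. Without ATG-treated nondiabetic mouse 2 there were 6 members called (Egfl7, Ehd3, Emcn, Eng, Klf4 and Sox17), and without any other mouse there were 0. Over all genes the calls numbered 77 with every mouse, 770 without that one and 6 to 124 without any other.

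To compare the members with other endothelial genes, each member was also set against the mean of the 28 reference genes in the same mouse, an alternative added after the data had been seen. On that scale, which lowers every gene in diabetic mice, the differences of Ehd3 and Plvap changed sign for diabetes in vehicle-treated mice. With 2 of 10 members called lower, Sox17 and Klf4, the share was near the 17.5% of all genes called lower, and 0 members and 0.965% of all genes were called higher. Sox17 was at −1.41, −1.40 and −1.22 relative to the reference in vehicle-treated nondiabetic mice and at −1.88, −1.89 and −2.05 in vehicle-treated diabetic mice (log2 fold change −0.60, limma adjusted p = 0.0248). Klf4 was at −0.49, −0.52 and −0.21 in the former and at −1.29, −0.76 and −1.17 in the latter (log2 fold change −0.67, adjusted p = 0.0461). Ehd3 at −0.26 and Plvap at −0.33 were not called.

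Emcn, Egfl7, Eng and Fli1 had positive differences on that scale, without a call. Egfl7 was at 0.67, 0.53 and 0.65 relative to the reference in vehicle-treated nondiabetic and at 1.03, 0.92 and 0.92 in vehicle-treated diabetic mice, a log2 fold change of 0.34 (limma adjusted p = 0.0531). For Eng the difference was 0.33 (adjusted p = 0.0713) and for Emcn 0.30 (limma adjusted p = 0.071). Fli1 was at 0.31 (adjusted p = 0.135 in limma). Erg stayed with the reference, with a difference of 0.05 for diabetes in vehicle-treated mice. In nondiabetic mice with ATG, the 10 members were between −0.39 (Klf2) and 0.19 (Erg) of the reference change, and none was called, where 70.4% of all genes were called higher and 0.227% lower. For diabetes in ATG-treated mice Eng alone was called, at 0.44 (limma adjusted p = 0.00426), where 0.717% of all genes were called higher and 86.9% lower.

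**Figure D4:**
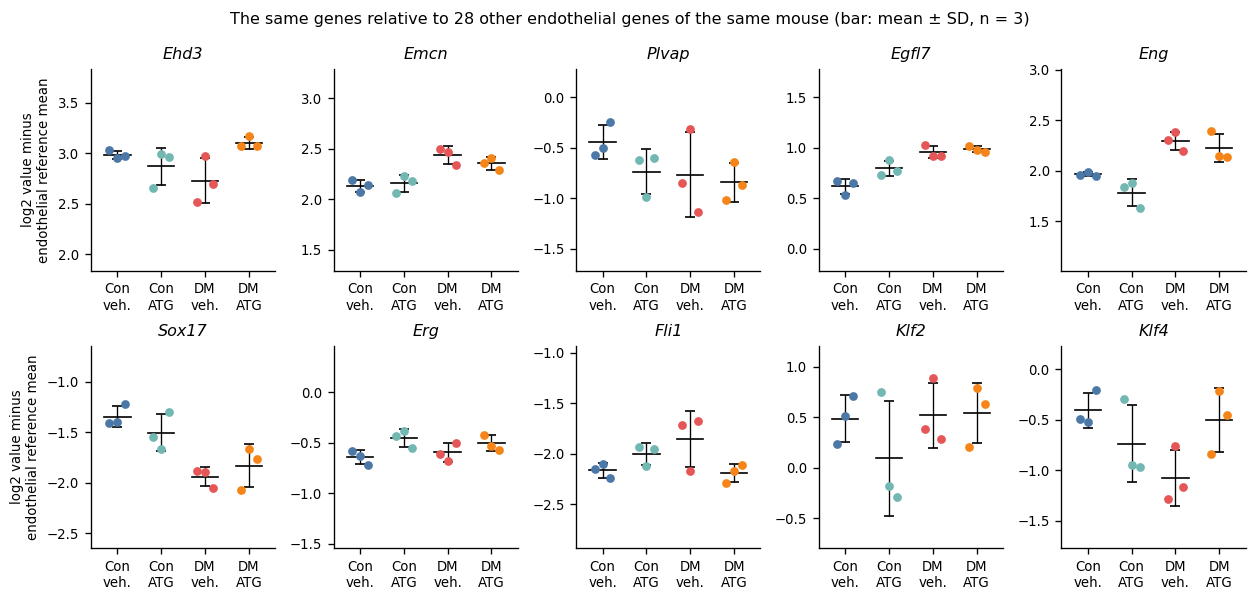
Log2 value of each member minus the mean of 28 other endothelial genes of the same mouse (y axis, a span of 2 log2 units in each panel), by group, with the mean ± SD of 3 mice. The means of Sox17 and Klf4 are −1.94 and −1.07 in vehicle-treated diabetic and −1.34 and −0.40 in vehicle-treated nondiabetic mice, and 17.5% of all genes were called lower on this scale. Egfl7 stands at 0.92 to 1.03 in the former and 0.53 to 0.67 in the latter.

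The difference between Klf2 and Klf4, which share the shear stress pathway, is given as a description, since neither gene was called with diabetes in vehicle-treated mice. Klf2 minus Klf4 within a mouse needs no scaling between libraries. It was 0.73, 1.03 and 0.92 in vehicle-treated nondiabetic mice, 1.05, 0.77 and 0.68 with ATG, 1.67, 1.65 and 1.46 in vehicle-treated diabetic mice and 1.05, 1.00 and 1.07 in diabetic mice with ATG. All 3 vehicle-treated diabetic mice had a wider gap than any of the other 9, by 0.70 on average from the vehicle-treated nondiabetic mice and by 0.55 from the diabetic mice with ATG (means 1.59 and 1.04; p = 0.1 for each by an exact permutation test of both sides, the least it can give).

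That pair was singled out after its values were seen, from 45 pairs of members. In vehicle-treated mice, 22 of the 45 did not overlap between diabetic and nondiabetic, and Klf2 stood higher without overlap against 41.9% of all other genes. With ATG in diabetic mice 9 pairs did not overlap, and 0.568% of all genes gained on Klf2 as Klf4 did. Klf4 paired with Emcn, Plvap or Fli1 also did not overlap in either comparison, at the same least p of 0.1 in the exact permutation test. Sox17 minus Klf4 overlapped with diabetes in vehicle-treated mice. Klf4 paired with Ehd3, Egfl7, Eng or Erg overlapped with ATG in diabetic mice. Emcn minus Klf4 was 2.54 ± 0.17 (SD, n = 3) in vehicle-treated nondiabetic, 3.51 ± 0.28 in vehicle-treated diabetic and 2.85 on average in ATG-treated diabetic mice.

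**Figure D5:**
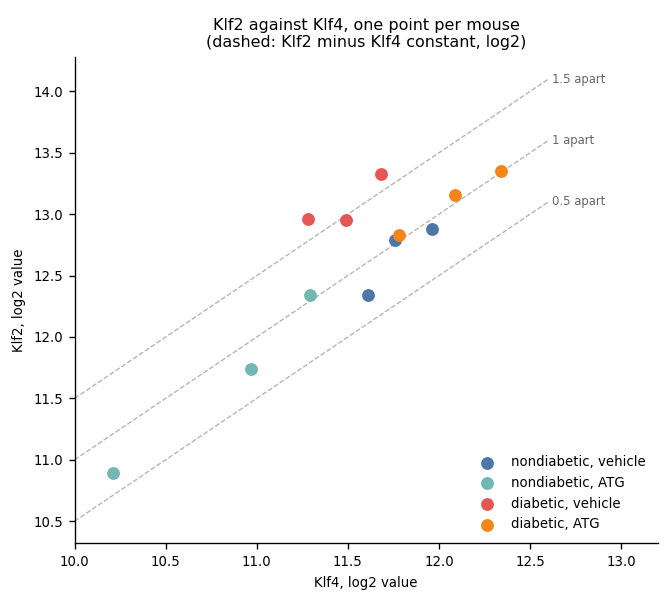
Klf2 (y axis) against Klf4 (x axis), log2 values, 1 point per mouse and coloured by group; dashed lines mark a constant difference between both. The 3 vehicle-treated diabetic mice lie near the line of 1.5, at 1.46 to 1.67, and the other 9 mice at 0.68 to 1.07.

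Some genes upstream of Klf2 and Klf4 were called higher with diabetes. Of 12 (Piezo1, Plxnd1, Heg1, the CCM complex, MEKK3, MEK5, ERK5 and MEF2 factors), 4 were called higher in vehicle-treated diabetic mice and 0 lower (median log2 fold change 0.24), where 10.2% of all genes were called higher. They were Ccm2, a scaffold that restrains MEKK3 (0.43, limma adjusted p = 0.0123), Map3k3, which is MEKK3 itself (0.29, adjusted p = 0.0157), Mapk7, the kinase ERK5 (0.48, adjusted p = 0.024), and Plxnd1, a flow sensor (0.39, adjusted p = 0.0363). With ATG, Plxnd1 alone was called lower in nondiabetic mice (−0.80, limma adjusted p = 0.00719) and none in diabetic mice. Of the 12, 10 were higher for diabetes in ATG-treated mice, where 25.9% of all genes were. None passed for the interaction.

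Targets that flow raises or lowers were called most often for diabetes in ATG-treated mice, the comparison with 46.7% of all genes called. Of 7 flow-induced genes, with the disrupted Nos3 among them, S1pr1, the sphingosine 1-phosphate receptor of endothelial cells, was the 1 called higher with diabetes (0.79, limma adjusted p = 0.0256), beside 10.2% of all genes. Gja4, a gap junction protein, and Cyp1b1 were called lower with ATG in nondiabetic mice (−0.73 and −0.76, adjusted p = 0.0213 and 0.0251 from limma). For diabetes in ATG-treated mice 5 were higher and 1, Nqo1, lower, and Gja4 passed for the interaction (1.08, adjusted p = 0.0489). Of 5 flow-repressed genes, 2 were called higher with diabetes, namely the leukocyte adhesion molecules Sele (1.39, limma adjusted p = 0.0191) and Icam1 (0.75, adjusted p = 0.0214). Vcam1 and Angpt2 were lower with ATG in nondiabetic mice, and Sele, Icam1 and Angpt2 were higher for diabetes in ATG-treated mice. S1pr1 is also counted in the endothelial reference and Gja4 among the arterial genes.

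Of 13 listed genes of the endoglin pathway, 3 (Id1, Id3 and Smad1) were called higher with diabetes in vehicle-treated mice, beside 10.2% of all genes, and the median of the 13 was 0.04. Id1, a direct target of ALK1 signalling, was 0.54 higher (limma adjusted p = 0.0149), Id3 0.36 (adjusted p = 0.037) and the signal transducer Smad1 0.34 (adjusted p = 0.0277). Acvrl1, which encodes ALK1, was at 0.40 (adjusted p = 0.076) in that comparison and was called lower with ATG in nondiabetic mice (−0.71, limma adjusted p = 0.0242), as was Id1 (−0.62, adjusted p = 0.0218). For diabetes in ATG-treated mice 7 of the 13 were called higher, beside 25.9% of all genes, and Id1 passed for the interaction (0.98, adjusted p = 0.0455).

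The relatives of the members gave the following counts. Both other SOXF genes, Sox7 and Sox18, were called lower with ATG in nondiabetic mice (−0.75 and −0.62, adjusted p = 0.0103 and 0.021 from limma). For the interaction, Sox7 was at 1.09 (limma adjusted p = 0.0363) and Sox18 at 0.94 (adjusted p = 0.0455). The 3 SOXF genes thus passed with a positive sign, as did 76 of the 77 genes called (0.539% of all genes). With the endothelial mean as a covariate, or when scaled to it, no gene passed for the interaction. Both relatives rose for diabetes in ATG-treated mice (1.08 and 1.37). With diabetes in vehicle-treated mice, Sox18 was called higher (0.43, adjusted p = 0.0355) while Sox7 was at −0.01. Sox7 read 9.50, 9.63 and 9.69 in vehicle-treated nondiabetic mice, 8.74, 9.17 and 8.66 with ATG, 9.50, 9.66 and 9.63 in vehicle-treated diabetic mice and 9.83, 9.99 and 10.00 in diabetic mice with ATG, so that the ATG-treated groups were the lowest and the highest and overlapped neither vehicle group.

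Of 14 other ETS factors, 1, Etv1, was called lower with diabetes in vehicle-treated mice (−0.64, limma adjusted p = 0.00913) and none higher, beside 8.63% and 10.2% of all genes. Ets1 was called lower with ATG in nondiabetic mice (−0.71, adjusted p = 0.038), and 6 were higher and 2 lower for diabetes in ATG-treated mice, a share near the 46.7% of all genes called in either direction. Of 11 other KLF factors none was called with diabetes in vehicle-treated mice, Klf13 was called lower with ATG in nondiabetic mice (−0.47, adjusted p = 0.0398) and 5 were higher for diabetes in ATG-treated mice. Klf3 passed for the interaction (0.84, adjusted p = 0.0455). Ehd1, Ehd2 and Ehd4 were not called with diabetes in vehicle-treated mice. Ehd4 was lower with ATG in nondiabetic mice (−0.71, limma adjusted p = 0.0452), and Ehd2 and Ehd4 were higher for diabetes in ATG-treated mice. No gene of these lists was called for ATG in diabetic mice.

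Other endothelial genes were listed apart for the glomerular and the arterial bed, and the lists were not tested against each other. The median log2 fold changes of the glomerular and the arterial list were 0.29 and 0.19 with diabetes in vehicle-treated mice. They were −0.60 and −0.53 with ATG in nondiabetic mice, and 0.91 and 0.67 for diabetes in ATG-treated mice. Of 4 other glomerular endothelial genes, Gata5 rose with diabetes (0.56, limma adjusted p = 0.0204), fell with ATG in nondiabetic mice (−0.83, adjusted p = 0.0112) and passed for the interaction (1.05, adjusted p = 0.0476). Tbx3 was also lower with ATG in nondiabetic mice (−0.53, adjusted p = 0.0165), and all 4 were higher for diabetes in ATG-treated mice. Of 11 arterial genes none was called higher and 1, Fbln5, lower with diabetes (−0.38, adjusted p = 0.036). With ATG in nondiabetic mice 4 were lower (Gja4, Gja5, Fbln5 and Notch4) and for diabetes in ATG-treated mice 7 were higher. Of all genes, 4.51% were called lower and 25.9% higher in these 2 comparisons.

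Among all listed genes, those whose log2 values ran most nearly parallel to the member mean over the 12 mice were Arhgef15 (Pearson's r = 0.991), B4galt4 (0.989), Tgfb1i1 (0.989), Rftn1 (0.988) and Acvrl1 (0.987). The 12 points share libraries and group differences, and with group means removed r was 0.913 to 0.954. Per member, the nearest gene was Pip4k2a for Ehd3 (0.990), Tuba1b for Emcn (0.994), Bgn for Plvap (0.952), Pitpna for Egfl7 (0.993) and St6galnac4 for Eng (0.996). For the factors it was Afap1l2 for Sox17 (0.981), Gimap5 for Erg (0.993), Necab3 for Fli1 (0.978), the early response gene Ier5 for Klf2 (0.975) and Gata2, an endothelial GATA factor, for Klf4 (0.959). With group means removed, r was 0.833 for Plvap and Bgn, the lowest of these, and 0.977 for Eng and St6galnac4, the highest.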

How the data were processed

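Male eNOS-/- mice took their groups from the condition that the labels name. The authors deposited 1 table per mouse of log2 values for 14096 genes with positions, and the submitters' processing notes name mm10 and limma. Aligner and counting software are not given in the sources used here. Unlogged, a single step per library turned 83.4% to 84.0% of its values below 2000 reads into whole numbers (tolerance 0.02 reads), and so gave reads per mouse. Differences were tested with limma (version 3.58.1 in R 4.3.3) on the deposited log2 values, with a mean-variance trend, all 12 mice in one fit, 5 two-sided comparisons and p-values adjusted by Benjamini-Hochberg across every gene listed. A gene was called at an adjusted p under 0.05. Named genes are the 10 members, Nos3, from each of 17 hand-written lists those with the lowest p in limma, relatives and partners of a member, and the genes with the highest Pearson's r. The members and lists were chosen with earlier results of these data known. Exact permutation tests used scipy 1.17.1. Promoter windows are from RefSeq, and overlapping exons from GENCODE M21. The script for the fit was tested on simulated data. Alternatives were another scaling (median of ratios), a linear minimum of 10, limma-voom on the recovered reads, no trend, only the groups compared, the replicate number as a block, each mouse or both unnumbered nondiabetic mice left out, and covariates. The block took the number in the label, with both unnumbered mice as a level of their own. The scaling to endothelial genes and the differences between members in a mouse were added after the data had been seen.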

Additional observations from a re-analysis of the deposited data

Results flagged for a closer look

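The response of Sox17 to ATG differed between diabetic and nondiabetic mice in the interaction test, by 0.90 on the log2 scale (SE 0.16, limma adjusted p = 0.0455). It was lower with ATG in nondiabetic mice (log2 fold change −0.78) and at 0.12 in diabetic mice, and it was the only member called in this test, where 0.539% of all genes were called in that direction. Leaving out single mice, the interaction of Sox17 ranged from 0.81 to 1.01, with adjusted p from 0.0102 to 0.144 in limma. With the tubule mean as a covariate it was 0.89 (adjusted p = 0.0679 from limma), and relative to the endothelial reference genes it was 0.27 (adjusted p = 0.282).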

How the results depend on the processing

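Of the log2 fold changes of the 10 members in 5 comparisons, counted under each alternative other than leaving out a single mouse, 418 kept their direction and their side of the threshold, 86 lost and 3 gained a call with the sign kept, and 33 changed sign. Those 33 include lost calls for diabetes in ATG-treated mice, of Erg and Fli1 with the endothelial covariate and of Plvap, Sox17, Erg and Fli1 when scaled. The scaling shifts all genes of a comparison by the same amount, and 14 of the 33 arose under it. The cause of these changes was not tested. For diabetes in vehicle-treated mice, 0 members were called with the tubule, the endothelial reference or the leukocyte mean as a covariate (the 4 log2 fold changes were at 0.22 to 0.31 with the endothelial and 0.65 to 0.78 with the leukocyte covariate, and 211, 639 and 888 of all genes were called against 2659), and 2, both lower, when scaled to the endothelial reference mean, against 4. For ATG in nondiabetic mice there were 2 with median-of-ratios scaling, 3 without a trend, 0 without both unnumbered mice, 1 with the tubule covariate, 0 with the endothelial covariate, 2 with the leukocyte covariate (39, 0 and 268 of all genes under these 3 covariates, against 736), 0 when scaled to the endothelial reference and 0 with only the groups compared, against 5. Of all genes, 538 were called with median-of-ratios scaling, 602 without a trend and 8 without both unnumbered mice. When scaled to the endothelial reference 9959 were, and 0 with only the groups compared. For diabetes in ATG-treated mice there were 0 with the tubule and 0 with the endothelial covariate (54 and 0 of all genes, against 6585) and 1 when scaled to the endothelial reference, against 10. When scaled, 12344 of all genes were called in that comparison, 101 of them higher. For the interaction there were 0, against 1, without a trend, without both unnumbered mice, with each of the 3 covariates and when scaled. Of all genes, 19 were called without a trend and 6 without both unnumbered mice, against 77. With the tubule, endothelial and leukocyte covariates 38, 0 and 35 were, and 0 when scaled. Whether numbers shared between mice of different groups mark pairs was not settled. Of 14 same-numbered pairs, 5 had a correlation of deviations from the group means over 0.1 (from −0.59 to 0.339). The 14 count both unnumbered mice as a pair (0.0971). Pairs with different numbers ran from −0.444 to 0.613. With the replicate block, 10 members were called for diabetes in ATG-treated mice, 4 for ATG in nondiabetic mice and 0 in each of the other 3 comparisons. Of all genes, 4422 and 946 were called in the former comparisons. For diabetes in vehicle-treated mice, ATG in diabetic mice and the interaction, 1375, 0 and 8 were.

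Signs changed as follows. With the endothelial mean as a covariate, the log2 fold change for diabetes in vehicle-treated mice was −0.21 for Ehd3, −0.05 for Plvap and −0.05 for Erg. For ATG in nondiabetic mice it was 0.01 for Emcn, 0.23 for Egfl7, 0.35 for Erg and 0.16 for Fli1, and for diabetes in ATG-treated mice −0.32 for Erg and −0.18 for Fli1. The interaction was −0.09 for Emcn, −0.20 for Egfl7, −0.06 for Eng, −0.27 for Erg and −0.50 for Fli1. When scaled to the endothelial reference, values were −0.26 for Ehd3 and −0.33 for Plvap with diabetes in vehicle-treated mice, and 0.02 for Emcn, 0.18 for Egfl7, 0.19 for Erg and 0.16 for Fli1 with ATG in nondiabetic mice. With diabetes in ATG-treated mice they were −0.11 for Plvap, −0.33 for Sox17, −0.05 for Erg and −0.19 for Fli1, and for the interaction −0.11 for Emcn, −0.15 for Egfl7, −0.10 for Erg and −0.50 for Fli1. With the leukocyte covariate, ATG in diabetic mice gave 0.00 for Eng and −0.17 for Klf2. With the tubule covariate, Klf2 was at −0.06 in that comparison, Ehd3 at −0.09 for diabetes in vehicle-treated mice and the interaction of Fli1 at −0.00.

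Leaving out single mice, the members called numbered 10 for diabetes in ATG-treated mice, 0 to 8 for ATG in nondiabetic mice, 0 to 6 for the interaction, 0 to 5 for diabetes with vehicle and 0 for ATG in diabetic mice. Of all genes, 4766 to 7451, 60 to 3531, 6 to 770, 801 to 3357 and 0 were called, in that order. Signs changed for Plvap with diabetes in vehicle-treated mice (−0.12 to 0.19), for Fli1 in the interaction (−0.09 to 0.27) and, with ATG in diabetic mice, for Plvap (−0.20 to 0.10), Egfl7 (−0.04 to 0.09), Eng (−0.16 to 0.01), Erg (−0.00 to 0.20) and Klf2 (−0.09 to 0.17). The 3 mice per group limit the precision. Each member had at least 470 reads in every mouse, and the part of read number in the spread was not tested. The cell type covariates themselves differed between the groups.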

Other observations

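Lists of other cells gave these values. Of all genes, 10.2% were called higher and 8.63% lower with diabetes in vehicle-treated mice, 25.9% higher for diabetes in ATG-treated mice, 4.51% lower with ATG in nondiabetic mice and 0.539% higher for the interaction. Of 11 mesangial and mural genes, 1 was called lower with diabetes in vehicle-treated mice, 7 higher for diabetes in ATG-treated mice and 3 for the interaction, beside the 7 lower with ATG in nondiabetic mice. Of 15 leukocyte genes, 5 were higher and 1 lower with diabetes in vehicle-treated mice, and 5 higher and 1 lower in ATG-treated mice. Of 6 erythrocyte and platelet genes, 4 were higher with diabetes in vehicle-treated mice (median log2 fold change 1.63) and 2 in ATG-treated mice. Of 20 podocyte genes, 6 were higher for diabetes in ATG-treated mice (median 0.65). Of 20 early response genes, 1 was higher and 1 lower with diabetes in vehicle-treated mice, and 1 higher in ATG-treated mice. None of these lists had a gene called for ATG in diabetic mice.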
